A study of Mus musculus with 4 samples.

Results

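The 4 genes described here, Kif21a, Abcd2, Slc2a13 and Lrrk2, lie in 1 neighbourhood of mouse chromosome 15, and their DNA methylation was measured in 4 anti-PD1-treated tumors. The neighbourhood runs from 90900000 to 91950000 (mm10, GRCm38). It was selected on measured values of the same data, namely low promoter methylation of Kif21a and Slc2a13 in resistant compared with parental tumors, so every methylation difference between the lines given here for the 4 genes is a description without a test. The 4 genes are part of 20135 genes with a qualified promoter CpG in the series.

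Tumors grew from 344SQP cells (parental) or 344SQR cells (anti-PD1-resistant), lung adenocarcinoma cells of a mouse model. The cells were injected subcutaneously into the leg of female syngeneic 129Sv/Ev mice aged 12 to 16 weeks. Tumors of both lines received anti-PD1 at 10 mg/kg by intraperitoneal injection, starting on day 4, for 4 doses at 2 per week, and were collected 24 h after the last dose. There were 2 tumors of each line, each line is a single cell line, and no tumor given control antibody was analysed here. Methylation was read by reduced representation bisulfite sequencing (RRBS), in which a restriction digest enriches CpG-dense DNA and bisulfite converts unmethylated cytosine. The unit is the percent of reads at a CpG that kept the cytosine.

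In mammalian genomes most CpGs carry methylation, whereas CpG-dense promoters usually do not, and methylation of such a promoter often accompanies a silent gene. Expression was not measured here. Kif21a encodes a kinesin motor of the kinesin-4 family that acts on microtubules. Abcd2 encodes a peroxisomal transporter of very long chain fatty acids, Slc2a13 a proton-coupled myo-inositol transporter of the sugar transporter family, and Lrrk2 a large protein with kinase and GTPase activity that is mutated in inherited Parkinson's disease.

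The coverage summed over CpG sites was 116794455 and 138331886 in the parental tumors, compared with 160548303 and 174689402 in the resistant tumors. Resistant tumor 2 listed 6377285 sites, more than the 2695851 to 3772295 of the other tumors. Chromosome Y took 47437 and 35071 of these calls in parental tumors 1 and 2, and 89028 and 31130 in resistant tumors 1 and 2. It was thus higher in tumor 1 of each line, and its part in the results was not tested. The neighbourhood holds 10563 CpGs in the reference genome, of which 277 (2.62%) had at least 20 reads on at least 1 strand in each of the 4 tumors. They gave 319 qualified sites when each strand was counted as its own site, with 20 to 296 reads each. Of these sites 172 lay in promoters, 127 in gene bodies and 20 between genes. At 20 reads, 1 read is worth 5 percentage points.

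The Kif21a promoter (ENSMUSG00000022629, chromosome 15 from 91049318 to 91050948, 74 sites) held 24.3% methylation in either parental tumor, whereas the resistant tumors held 2.17% and 2.16%. Both resistant tumors lay below both parental tumors, and the means within a line hardly differed, although the parental tumors differed in opposite directions between parts of the promoter (below). The means were 24.3% ± 0.0190 for parental and 2.17% ± 0.00875 for resistant tumors (SD, n = 2), a difference of −22.1 percentage points. The Slc2a13 promoter (ENSMUSG00000036298, from 91572761 to 91574261, 57 sites) had 21.8% and 32.5% in the parental tumors, compared with 4.63% and 6.40% in the resistant tumors. The lines were again apart, but the parental tumors differed more from each other than at Kif21a. The means were 27.2% ± 7.56 and 5.52% ± 1.25 (SD, n = 2), a difference of −21.7 points. In bulk tumors, a change of methylation within a cell type and a different mixture of cells cannot be told apart.

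The promoters of Abcd2 and Lrrk2 differed by fewer points. Abcd2 (ENSMUSG00000055782, from 91191299 to 91192799) rested on 5 sites in coding exon 1, which gave 10.6% and 12.7% in the parental tumors, compared with 5.29% and 10.9% in the resistant tumors. The groups overlapped, with means of 11.7% ± 1.45 and 8.11% ± 3.99 (SD, n = 2) and a difference of −3.54 points. It moved to −0.719 points without resistant tumor 1, −6.36 without resistant tumor 2 and −6.33 with a minimum of 10 reads (8 sites). The sign depended on which sites were used: the 2 sites within 500 bp of the RefSeq start, which lies farther upstream, gave 1.17 points. Lrrk2 (ENSMUSG00000036273, from 91672175 to 91673675, 25 sites) was almost free of methylation, with 1.60% and 1.24% in the parental and 0.796% and 0.989% in the resistant tumors. The means were 1.42% ± 0.249 and 0.892% ± 0.137 (SD, n = 2), and the difference was −0.528 points. In the order of the parental means, Slc2a13 and Kif21a came first and did not differ beyond their spread, followed by Abcd2 and then Lrrk2. In resistant tumors Abcd2 came first, Slc2a13 lay within the spread of Abcd2, and Kif21a and Lrrk2 followed.

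The promoter test, a likelihood ratio test at each site combined over a promoter by Stouffer's z score, called 7750 of 20135 promoters at an FDR under 0.05 (38.5%), 5980 lower and 1770 higher in resistant tumors. Single tumors moved this split, to 4419 lower and 2578 higher without parental tumor 2 and to 5781 lower and 785 higher without resistant tumor 2. It called 3 of the 4 promoters, those of Kif21a, Abcd2 and Slc2a13. Of the 4 promoters, 3 had both resistant tumors below both parental tumors (Kif21a, Slc2a13 and Lrrk2), as did 32.5% of the promoters measured. edgeR, which takes the spread of the tumors into account, called 15 promoters, and there Slc2a13 and Abcd2 lost their calls while Kif21a kept its call. The neighbourhood was chosen on this contrast, and nothing is read from these calls and counts. Abcd2 was called in 4 of 11 settings, and also lost its call when parental tumor 1, parental tumor 2 or resistant tumor 1 was left out. The median difference over 20135 promoters was −0.233 points.

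At single sites, 70 of the 74 in the Kif21a promoter and 54 of the 57 in the Slc2a13 promoter had both resistant tumors below both parental tumors. The count was 3 of 5 for Abcd2 and 2 of 25 for Lrrk2, and 21.2% of the 1081201 qualified sites of the genome met the same condition. In the Kif21a promoter, 30 and 27 of the 74 sites had no methylated read in resistant tumors 1 and 2, compared with 3 and 2 sites in the parental tumors. In the Slc2a13 promoter the corresponding numbers were 8 and 2 of 57 sites in the resistant tumors and 0 in both parental tumors. At Lrrk2, 16 to 19 of 25 sites had no methylated read in each of the 4 tumors. The parental Kif21a and Slc2a13 promoters were thus partly methylated at most of their sites. The line mean of single sites reached 47.8% at Kif21a and 52.2% at Slc2a13.

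**Figure D1:**
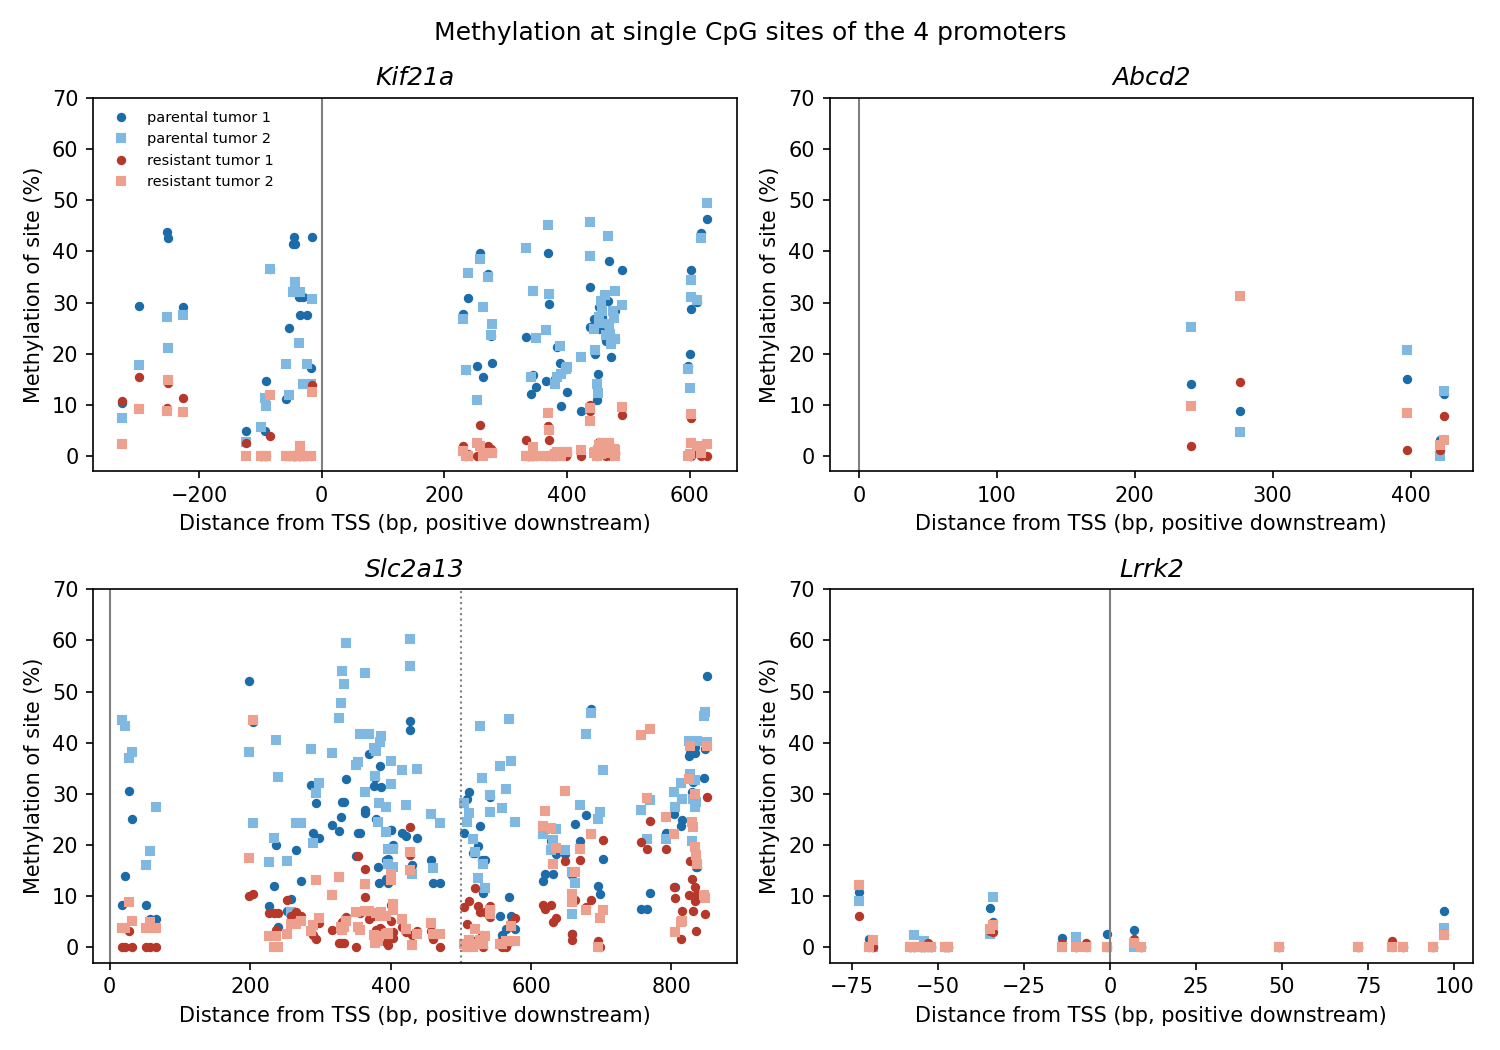
Methylation (%) of each qualified CpG site against its distance from the TSS in bp for the 4 promoters, 1 point per site and tumor, with circles for tumor 1 and squares for tumor 2 of the parental (blue) and resistant (red) lines. The solid line marks the TSS and the dotted line the end of the Slc2a13 promoter window at 500 bp, beyond which 52 further sites are shown. Parental points lie above resistant points at 70 of 74 Kif21a sites, whereas most Lrrk2 points lie near 0 in every tumor.

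The low methylation of Kif21a in resistant tumors covered each annotated part of its promoter. Upstream of the TSS at 91049948, 21 sites had 26.4% and 20.3% in the parental and 3.88% and 3.34% in the resistant tumors. The 3 sites of the 5′ untranslated sequence had 25.1% and 26.5% compared with 0.789% and 0.338%. The 6 sites of coding exon 1 had line means of 26.1% ± 1.56 and 1.40% ± 0.548 (SD, n = 2). The 44 sites at the start of intron 1 had 23.1% and 25.7% compared with 1.51% and 1.88%. The 4 parts had nearly the same level in the parental line, whereas in the resistant line the upstream sequence was highest. A further 9 sites of intron 1 from 91049165 to 91049316, just outside the promoter window, continued it with 25.1% and 17.7% in the parental and 2.19% and 3.18% in the resistant tumors. Deeper in the gene body the level was high in both lines: 4 sites from 91017353 to 91017570 in an intron had 95.3% and 94.6% in the parental and 87.8% and 80.1% in the resistant tumors, and 5 sites from 90970970 to 90971125 had 94.3% and 93.2% compared with 97.4% and 96.6%.

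The site with the largest difference in each promoter gives the precision of single sites. At Kif21a it was position 91049319 on the minus strand, in intron 1 at 629 bp from the TSS. Parental tumor 1 had 75 methylated reads of 162 (46.3%, 95% Wilson interval 38.8 to 54.0), and parental tumor 2 had 81 of 164 (49.4%, interval 41.8 to 57.0). In the resistant tumors the counts were 0 of 111 (upper bound 3.35%) and 5 of 206 (2.43%, interval 1.04 to 5.56). At Slc2a13 it was position 91572925 on the plus strand, in coding exon 1 at 336 bp from the TSS, where parental tumor 1 had 22 of 67 (32.8%, interval 22.8 to 44.7) and parental tumor 2 had 97 of 163 (59.5%, interval 51.8 to 66.7). The resistant tumors had 7 of 120 (5.83%, interval 2.85 to 11.6) and 9 of 174 (5.17%, interval 2.74 to 9.54). The Abcd2 site with the largest difference, 91191523 on the minus strand, went the other way: 8.77% and 4.76% in the parental and 14.5% and 31.2% in the resistant tumors, on 55 to 84 reads. At Lrrk2 the largest difference was −3.77 points, at 91673141, where the intervals of all 4 tumors overlapped. Wilson intervals cover counting error alone, since reads without molecular identifiers are not independent molecules.

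Not every CpG of the Kif21a promoter was methylated in parental tumors. Over the 2 parental tumors, position 91049572 on the minus strand had 0 methylated reads of 400 (Wilson upper bound 0.951%), and position 91049611 on the plus strand had 0 of 147 (upper bound 2.55%). Both lie in intron 1 among sites of intermediate methylation, and the reason was not tested.

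At Slc2a13 the methylated stretch ran past the promoter window into the gene. All 57 promoter sites lay downstream of the TSS at 91573261, and no site upstream of it qualified, so methylation there was not observed. The 7 sites of the 5′ untranslated sequence had 13.9% and 32.2% in the parental and 0.446% and 4.88% in the resistant tumors, and the 50 sites of coding exon 1 inside the window had 23.0% and 32.6% compared with 5.22% and 6.62%. From 91572410 to 91572756, beyond the window, 52 further sites had 20.3% and 28.0% in the parental and 8.61% and 13.6% in the resistant tumors, a difference of −13.0 points. The resistant tumors separated here. In the coding part of this stretch (30 sites) they had 6.13% and 8.55%, compared with 16.9% and 25.6% in the parental tumors. In the first part of intron 1 (22 sites) they had 12.0% and 20.5%, compared with 24.8% and 31.2% in the parental tumors. Within the promoter window the parental tumors also differed site by site: parental tumor 2 was higher at 50 of the 57 sites, compared with 36 of 74 sites at Kif21a. Across sites, Pearson's r between the parental tumors was 0.602 at Slc2a13 and 0.751 at Kif21a, a description over neighbouring sites that share reads.

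The 4 stretches of reference sequence (GRCm38, strand of the gene, 5′ to 3′) show where the sites of the 3 CpG-dense promoters lie, with capitals marking CpGs that held a qualified site. The first is the sequence upstream of Kif21a (chr15:91049952-91050251, minus strand), where 19 of 24 CpGs were read and 20 sites had 27.2% and 20.9% in the parental and 3.54% and 3.39% in the resistant tumors. The second lies in Kif21a intron 1 (chr15:91049439-91049629, minus strand), with 24 of 27 CpGs read and 37 sites at 21.4% and 24.6% compared with 1.55% and 1.80%. The third is the start of the Slc2a13 coding sequence in exon 1 (chr15:91572798-91573097, minus strand), with 40 of 46 CpGs read and 49 sites at 23.2% and 32.8% compared with 5.32% and 6.70%. The last is the sequence before Lrrk2 (chr15:91673025-91673174, plus strand), a CpG-rich stretch with little methylation in both lines, with 10 of 15 CpGs read and 17 sites at 1.72% and 1.60% compared with 0.856% and 1.27%.
Kif21a upstream: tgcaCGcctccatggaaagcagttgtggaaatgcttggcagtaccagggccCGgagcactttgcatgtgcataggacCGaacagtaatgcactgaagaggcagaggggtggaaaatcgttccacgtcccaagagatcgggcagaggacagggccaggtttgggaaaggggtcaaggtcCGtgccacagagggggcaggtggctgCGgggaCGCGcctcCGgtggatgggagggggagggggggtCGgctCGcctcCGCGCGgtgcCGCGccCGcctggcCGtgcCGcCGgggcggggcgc
Kif21a intron 1: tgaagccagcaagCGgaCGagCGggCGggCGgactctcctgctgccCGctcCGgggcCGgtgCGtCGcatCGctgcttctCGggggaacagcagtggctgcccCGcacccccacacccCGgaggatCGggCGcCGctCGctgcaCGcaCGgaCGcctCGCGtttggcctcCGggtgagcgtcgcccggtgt
Slc2a13 coding exon 1: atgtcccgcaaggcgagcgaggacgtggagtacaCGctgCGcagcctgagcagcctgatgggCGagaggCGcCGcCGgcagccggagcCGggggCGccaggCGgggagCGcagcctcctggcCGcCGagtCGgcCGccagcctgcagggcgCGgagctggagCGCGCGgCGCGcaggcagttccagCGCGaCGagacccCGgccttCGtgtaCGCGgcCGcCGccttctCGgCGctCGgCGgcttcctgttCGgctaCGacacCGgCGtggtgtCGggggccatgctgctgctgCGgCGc
Lrrk2 upstream: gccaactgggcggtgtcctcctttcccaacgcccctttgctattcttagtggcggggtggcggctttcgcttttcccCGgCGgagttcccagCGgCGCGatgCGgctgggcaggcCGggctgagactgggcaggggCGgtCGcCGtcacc

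Over the whole promoter windows, qualified sites covered 59 of 120 CpGs at Kif21a (49.2%), 48 of 87 at Slc2a13 (55.2%), 19 of 46 at Lrrk2 (41.3%) and 5 of 34 at Abcd2 (14.7%). The Abcd2 promoter was thus the least observed of the 4. In windows of 300 bases around the TSS taken from RefSeq (GRCm38.p6), 3 of the 4 genes were matched, with 30 CpGs at Kif21a, 28 at Lrrk2 and 13 at Slc2a13, compared with a median of 7 over 32851 promoters. At least as many CpGs were found in 11.7%, 14.2% and 37.9% of these promoters. The motif CCGG, which reads the same on both strands and is the usual cut site of RRBS, occurred 5 times at Kif21a, 3 times at Lrrk2 and once at Slc2a13, and 52.8% of the 32851 promoters held it.

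In promoters with little methylation, sites inside CCGG had higher values than their neighbours. At Lrrk2 the 4 sites inside CCGG had 7.61% and 6.36% in the parental and 3.66% and 5.62% in the resistant tumors, while the 21 other sites had 0.450% and 0.269% compared with 0.249% and 0.107%. In the resistant Kif21a promoter, 13 sites inside CCGG had 6.68% and 7.59% while the mean of the line at 61 other sites was 1.11%. The same was seen in 407 promoters of chromosome 15 with at least 5 sites and under 5% methylation in each tumor, where 3201 sites inside CCGG had 5.84% to 6.35% in the 4 tumors and 14766 other sites 0.444% to 0.556%. The cause was not tested. Without sites inside CCGG, the differences were −21.6 points at Kif21a, −21.6 points at Slc2a13, −0.182 points at Lrrk2 and 1.01 points at Abcd2, the last with a turned sign.

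Outside the promoters, the neighbourhood was mostly methylated in both lines. Sites separated by less than 1000 bp and of the same class were joined to clusters. Of 26 clusters outside promoters, 16 had a parental mean above 80%, 13 had both resistant tumors below both parental tumors, a condition met by 48.1% of windows of 1000 bp genome-wide, and 4 had both above. Gene bodies (127 sites) had 55.6% and 56.6% in the parental and 46.4% and 44.5% in the resistant tumors, a difference of −10.7 points with SDs of 0.708 and 1.39 (n = 2). Without the 61 sites next to the Kif21a and Slc2a13 promoters, the gene bodies had 87.7% and 84.5% compared with 82.3% and 74.4%, a difference of −7.76 points. Sites between genes (20 sites) had 70.4% and 62.1% in the parental and 69.4% and 59.1% in the resistant tumors. There the lines overlapped, and the difference of −2.01 points was smaller than the SDs of 5.91 and 7.34. It turned to 2.16 points without parental tumor 1 and to 3.17 points without resistant tumor 2.

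**Figure D2:**
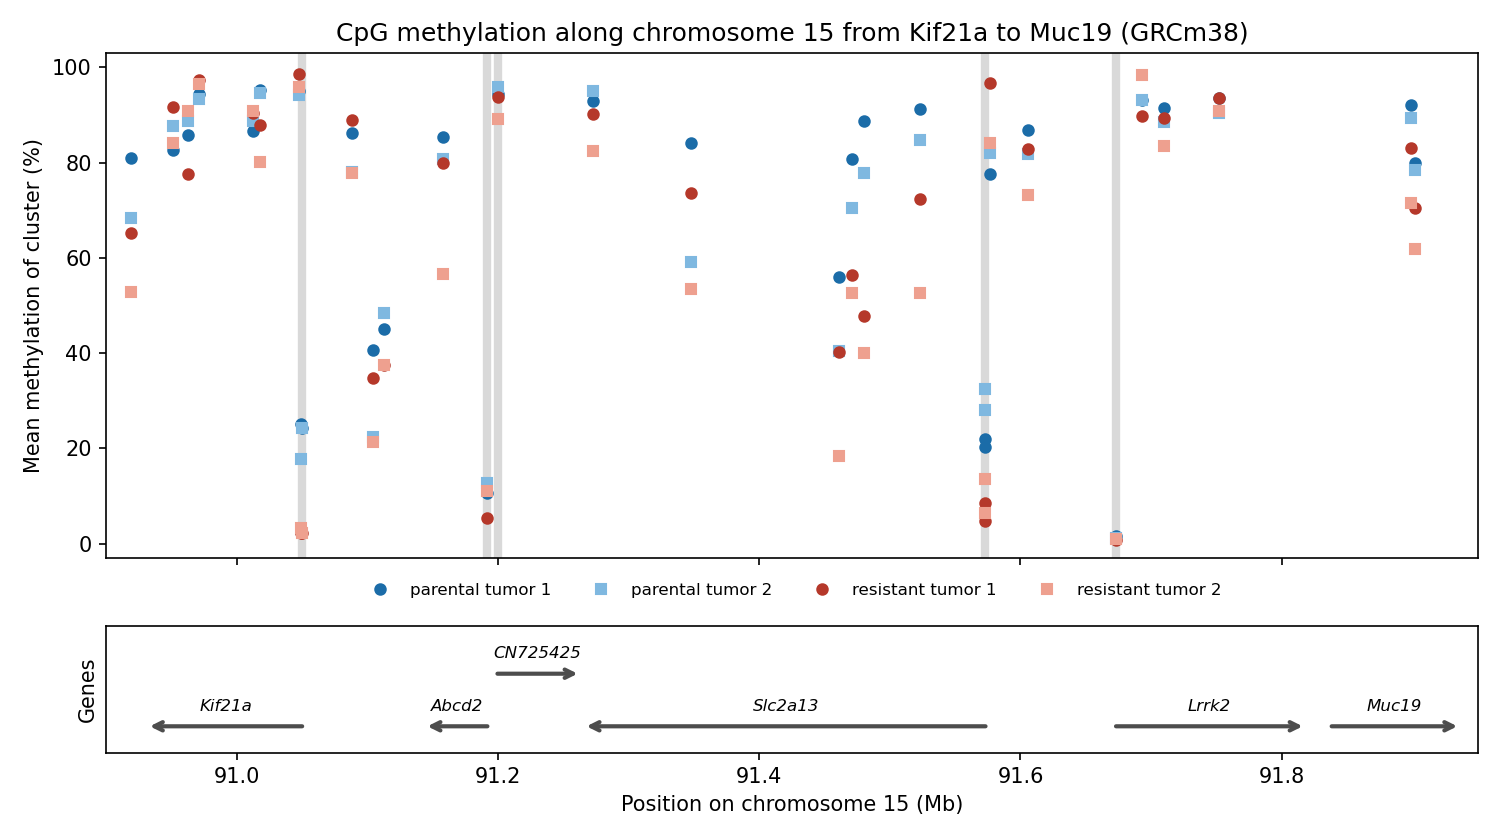
Mean methylation (%) of 31 clusters of CpG sites against position on chromosome 15 (Mb), 1 point per cluster and tumor, with circles for tumor 1 and squares for tumor 2 of each line. Grey bars mark clusters in promoters, and arrows below show the named genes in the direction of transcription. The Kif21a and Slc2a13 promoters have parental points above resistant points, and most clusters outside promoters have a parental mean above 80%.

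The distant part of the Slc2a13 gene body, from 91272266 to 91522989, had 84.0% and 75.4% in the parental and 70.9% and 56.3% in the resistant tumors over 18 sites, a difference of −16.1 points. In its introns, 1 site at 91480213 had 88.6% and 77.8% in the parental and 47.7% and 40.0% in the resistant tumors, and 4 sites from 91522908 to 91522989 had 91.2% and 84.8% compared with 72.3% and 52.5%. Tumor 2 was the lower of each line at both, which had the most negative differences of the intron clusters. At 3 intron sites from 91347690 to 91347789 the lines overlapped, with 84.0% and 59.1% compared with 73.6% and 53.5%. The other intron clusters, from 91460866 to 91461022 and at 91470970, differed by −18.9 and −21.1 points. A coding exon near the 3′ end of the gene, with 6 sites from 91272266 to 91272361, had line means of 94.0% ± 1.53 and 86.3% ± 5.56 (SD, n = 2). The Kif21a gene body, including the 9 sites beside its promoter, had 71.0% and 70.1% in the parental and 65.2% and 64.6% in the resistant tumors over 32 sites. Without these 9 sites the lines overlapped, with 89.0% and 90.7% compared with 89.9% and 88.7% over 23 sites, a difference of −0.540 points. The Lrrk2 gene body (11 sites) had 92.5% and 89.8% compared with 91.3% and 88.2%, with overlap between the lines. The 3 sites of the Abcd2 gene body had 85.4% and 80.7% compared with 79.9% and 56.7%.

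Outside promoters the neighbourhood held 17 windows of 1000 bp with 3 sites or more, and 8 of them had both resistant tumors below both parental tumors. Genome-wide, 48.1% of 55607 windows met this condition, and Stouffer's z score (below) called 36708 of 55607. In a fit with a replicate block, edgeR called 6 of the 17 at an adjusted p under 0.05, and 13432 windows genome-wide. The main fit, without the block, called 1 of the 17, and 0.845% of 55601 windows, of which it called 470. The window called holds the 9 Kif21a sites from 91049165 to 91049316 and differed by −18.7 points. It adjoins a promoter on which the neighbourhood was selected, so nothing is read from its call. The most negative differences were −25.6 points in the window from 91522001 to 91523000 in Slc2a13, −18.7 points in the Kif21a window, and −14.8 points from 91157001 to 91158000 in Abcd2. The most positive were 4.92 points from 90971001 to 90972000 and 2.72 points from 90951001 to 90952000, both in Kif21a, and 1.25 points from 91088001 to 91089000 between Kif21a and Abcd2. Windows of the neighbourhood had a median difference of −7.65 points, and all windows of the genome −4.76 points. Leaving out resistant tumor 1 raised the count of windows called to 10317, and leaving out parental tumor 1, parental tumor 2 or resistant tumor 2 lowered it to 52, 22 and 97. In the neighbourhood the count rose from 1 to 4 of 17 without resistant tumor 1 and stayed at 1 without each of the other tumors, and Stouffer's z score called 10 of 17, compared with 36708 windows genome-wide.

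Other genes of the neighbourhood gave few sites. CN725425, a coding gene between Abcd2 and Slc2a13, had 11 promoter sites with 94.4% and 95.8% in the parental and 93.8% and 89.1% in the resistant tumors. Its promoter was therefore highly methylated in both lines, above the promoters of Abcd2 and Slc2a13 on its 2 sides. Gm36618 at the left edge had 2 sites in an intron with 81.0% and 68.3% compared with 65.1% and 52.7%. These 2 sites went opposite ways, with −33.6 points at 90918537 and 2.17 points at 90918685. Muc19, a mucin gene at the right edge, had 9 sites in its body, of which 6 from 91899375 to 91899500 had 92.1% and 89.3% compared with 83.1% and 71.4%. The genes Smgc, 4933438A12Rik, Gm49545, Gm18814, Gm7167, Gm15383, Gm15381, Gm24647, Gm25389 and Gm15382 had no qualified site.

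Within 2 Mb of either edge, 41 promoters with at least 5 sites had differences from −15.1 to 6.89 points with a median of −0.228. Of these, 16 had both resistant tumors below both parental tumors, and the promoter test called 13 lower and 3 higher. Promoters were counted per gene, and some genes share the same sites and values, such as Trabd with 1810021B22Rik and Lmf2 with Ncaph2. Over all promoters the shares were 32.5% with both resistant tumors lower and 38.5% called. A difference of at least 10 points was seen at 4 of them: Gm15609 (−15.1), Klhdc7b (−10.9), Shank3 (−10.7) and Gm18685 (−10.1). Gm15609 had 46.9% and 35.3% in the parental and 37.4% and 14.6% in the resistant tumors, so its lines overlapped. The nearest of the 41 promoters on each side, named after their values were seen, were Cpne8 with −4.88 points (7.28% and 6.85% in the parental, 1.80% and 2.55% in the resistant tumors) and Cntn1 with 4.40 points (39.5% and 68.7%, 51.3% and 65.6%). None of the 41 promoters of the flanks differed by as much as Kif21a or Slc2a13. The neighbourhood was selected on the difference of these 2 promoters, so nothing is read from this. When the neighbourhood was taken as a whole, its 147 sites outside promoters differed by −9.51 points, compared with a median of −5.54 over 1746 bins of the same length (5th to 95th percentile −13.8 to −1.03), and 19.3% of bins were lower. Of these sites 61 adjoin the Kif21a and Slc2a13 promoters, on which the neighbourhood was selected, and the other 86 differed by −6.43 points, near the median of the bins.

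Read depth did not enter the choice of the genes and could be tested. The qualified sites of the neighbourhood had 279 and 305 CPM in the parental and 278 and 304 CPM in the resistant tumors. CPM are reads scaled for library size, here not by the summed coverage given above. The log2 ratio was −0.0049 (edgeR quasi-likelihood test, adjusted p = 0.993 over 2280 bins). On this scale the tumors of a line differed more than the lines did. In this test 1 of the 2280 bins (0.0439%) was called. With 1 tumor left out in turn, the log2 ratio lay between −0.069 and 0.065, and it was above 0 without parental tumor 2 and without resistant tumor 1. A difference of this size was not detectable with these tumors.

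Relatives of the 4 genes were measured as lists. In the kinesin-4 family, the promoter test called Kif7, Kif27 and Kif4 lower in resistant tumors, but by −3.08, −0.999 and −5.53 points and with overlap between the lines at Kif27 and Kif4, and Kif21b, the closest relative of Kif21a, had 1.15% and 3.33% in the parental and 2.65% and 3.56% in the resistant tumors. Abcd3 and Abcd4 had at most 2.23% in any tumor. Of 8 sugar transporters with a site, 4 were called lower and 1 higher, with a median of −4.48 points, and Slc2a2 and Slc2a6 had no qualified promoter site. The same test called 38.5% of all promoters. The insulin-responsive glucose transporter Slc2a4 was higher, with 5.76% and 8.12% compared with 13.4% and 25.8%. Slc2a5, the fructose transporter, was lower, with 100% and 97.8% compared with 78.2% and 71.7% on 2 sites, and Slc2a10, Slc2a12 and Slc2a9 were the others called lower, of which Slc2a12 had overlapping lines. Slc2a1, the main glucose transporter of many tumors, had 1.36% and 1.64% compared with 1.20% and 0.898%. Lrrk1 was as low as Lrrk2, with 1.12% to 1.81% in the 4 tumors.

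Promoters with the most similar values over the 4 tumors were found by Euclidean distance among 16691 other promoters with at least 5 sites. For Kif21a they were Gm41293, Gm27283, Mlf1, Lepr and Dclk1, at distances from 6.59 to 7.73 points. Gm41293 had 18.9% and 23.2% in the parental and 5.28% and 4.10% in the resistant tumors, and Lepr, the leptin receptor gene, had 18.7% and 27.0% compared with 5.76% and 4.12%. For Slc2a13 they were Gm48500, Pamr1, Lrrtm3, Gm10425 and Gm17090, at distances from 4.97 to 6.31 points. Pamr1 had 22.9% and 34.8% compared with 8.49% and 4.37%. Slc2a13 thus had closer matches than Kif21a, whose low resistant values were not shared by the 5 promoters named.

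Markers of other cell types were followed by their promoter methylation. All 3 fibroblast genes were measured, with 46.1% and 50.7% in the parental and 41.1% and 44.9% in the resistant tumors. This mean was lower in both resistant tumors, and its part in the differences at Kif21a and Slc2a13 was not tested. The mean rested on 1 site at Col1a1, where the lines overlapped. It also used 3 sites at Pdgfrb and 4 at Col1a2, where both resistant tumors were lower. The 3 epithelial genes with a site, Krt18, Epcam and Cdh1, had 5.48% and 5.39% compared with 4.74% and 5.04%. Nkx2-1, a lung lineage factor and the measured gene of 3 lung markers, had 9.87% and 14.5% compared with 12.7% and 18.7%. Pecam1, the measured gene of 3 endothelial markers, had 63.3% and 72.9% compared with 34.1% and 75.0% on 1 site.

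The coverage minimum set which sites were seen. The 5 sites of the neighbourhood with a lowest coverage of 20 to 24 reads had means of 19.5% and 16.5% in the parental and 13.1% and 6.94% in the resistant tumors. The 7 sites just below it, with 15 to 19 reads, had 78.8% and 78.9% compared with 74.1% and 59.9%. At the 42 CpGs read on both strands, the strands differed by a median of 3.43 and 3.61 points in the parental and 1.37 and 1.01 points in the resistant tumors, less than the differences between the lines at Kif21a and Slc2a13.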

How the data were processed

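The authors trimmed reads with Trim Galore 0.4.1 and cutadapt 1.9.1, aligned them to mm10 with Bismark and Bowtie 1.1.2 and deposited, for each tumor, a table of CpG cytosines with the read count (coverage) and the percent called C and T. Replicates were not pooled. Methylated reads were recomputed from coverage and percent. A site qualified with 20 reads or more in each of the 4 tumors. A promoter spanned 1000 bp before and 500 bp after every TSS of the GENCODE vM21 basic annotation, with the windows of a gene joined, and curated RefSeq starts were the alternative. Values are means of site percentages per tumor. Gene bodies are other sites inside annotated genes.

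Across promoters, each site was tested by a likelihood ratio test of a logistic model, combined by Stouffer's signed z score, with Benjamini-Hochberg FDR under 0.05. Windows of 1000 bp and read depth in bins of 1050000 bp on autosomes with at least 10 sites (TMM scaling) were tested by edgeR 4.0.16 in R 4.3.3, and DESeq2 1.42.0 was an alternative for depth. The promoter test treats reads as independent and ignores the spread between tumors, whereas edgeR estimates that spread from 2 tumors per line. Tests were checked on simulated data. Simulated methylated reads varied between tumors of a line by counting alone, so this check does not cover the spread between real tumors. Python 3.11.15, numpy 2.4.6, scipy 1.17.1, pandas 2.3.3 and matplotlib 3.10.9 were used.

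The 4 genes, their families, flanks and marker lists were chosen with earlier results of these data known. Results that need some of the listed genes are not reported here. Named beside them were every annotated gene of the neighbourhood, flanking promoters with a difference of at least 10 points, the 5 nearest promoters of Kif21a and Slc2a13, the site with the largest difference in each promoter, and the 3 windows with the most negative and the 3 with the most positive difference. Leaving out sites inside CCGG was chosen after seeing the data.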

Additional observations from a re-analysis of the deposited data

How the results depend on the processing

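The differences at Slc2a13 and over the gene bodies stayed within the spread of the tumors (the larger SD of the 2 lines) under each alternative run. With 2 tumors per line, leaving 1 out cannot move a difference beyond that SD, so those runs do not decide this. Slc2a13 gave −27.0 points without parental tumor 1 and −16.3 points without parental tumor 2. At Kif21a the promoter means of a line were nearly identical, but parental tumor 1 was higher upstream and parental tumor 2 in intron 1, so this spread is small partly because parts cancel. The difference stayed negative and moved beyond it to −22.4 points with at least 50 reads, −21.6 with strands merged, −22.5 with reads summed over sites, −21.3 with RefSeq starts and −21.6 without sites inside CCGG. Lrrk2 moved to −0.182 points without sites inside CCGG. Abcd2 gave −6.33 points with at least 10 reads, −0.719 without resistant tumor 1 and −6.36 without resistant tumor 2, each within its spread. It changed sign to 1.17 points with RefSeq starts (2 sites) and 1.01 without sites inside CCGG (3 sites), and the causes of these changes were not tested. With a tumor left out, the difference between genes ranged from −7.20 to 3.17 points and the log2 ratio of read depth from −0.069 to 0.065. The count of promoters called was 15 with edgeR, compared with 7750. Windows called numbered 836 with at least 10 reads, 278 in windows of 500 bp, 789 in windows of 2000 bp, 40 with at least 5 sites and 36708 with Stouffer's z score, compared with 470, and ranged from 22 to 10317 with a tumor left out, where the lone tumor of a line was assumed to vary like the others. Tumors of the same number share no more than a number in the labels. Their deviations correlated across promoters (r = 0.663), and in fits with a replicate block edgeR called 2444 promoters and 13432 windows, 6 of them in the neighbourhood, the Mantel-Haenszel test called 7549 promoters, and the log2 ratio of depth was −0.0048. Depth bins called numbered 107 with DESeq2, 76 with the block, 5 with scaling to total coverage and 0 by edgeR over every listed CpG (250 at an unadjusted p under 0.05), compared with 1, and the neighbourhood was not among those called. Abcd2 was called in 4 of 11 settings, Slc2a13 in 10 (not with edgeR without the block), Kif21a in 11 and Lrrk2 in 0, and nothing is read from these calls, since the neighbourhood was chosen on the same values. With 2 tumors per line and a minimum of 20 reads at a site, small differences were not detectable. Abcd2 rested on 5 sites with 52 to 96 reads and had a resistant SD of 3.99 points.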
